A study of Homo sapiens with 27 samples.

Results

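Small nucleolar RNA host genes were examined in REH, a human leukemia cell line of B-cell precursors that carries the ETV6/RUNX1 fusion. The members were all genes whose symbol is SNHG followed by a number, together with GAS5, which gave 29 of the 60619 gene identifiers in the count tables. All 27 samples were harvested 72 h after the start of treatment, with medium alone (n = 2) or 10 µM of an LNA GapmeR taken up without a transfection reagent. GapmeRs are short antisense oligonucleotides. Their locked nucleic acid ends protect them, and their DNA centre lets RNase H cleave the RNA they pair with. The GapmeR groups were a non-targeting control called NTC (n = 3), lnc-NKX2-3-1 GapmeR1 (n = 2) and GapmeR2 (n = 3), lnc-RTN4R-1 GapmeR1 and GapmeR2 (n = 3 each), lnc-TIMM21-5 GapmeR1 and GapmeR2 (n = 3 each), and lnc-ASTN1-1 GapmeR1 (n = 3) and GapmeR2 (n = 2). Medium and NTC together are the 5 controls. The labels number the replicates 1 to 3, and the methods of the study place the replicates on different days. Medium and lnc-NKX2-3-1 GapmeR1 had replicates 1 and 2, and lnc-ASTN1-1 GapmeR2 had replicates 1 and 3. All samples came from the same cell line, so the replicates measure the spread between treatments of that line on separate days.

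Small nucleolar RNAs (snoRNAs) guide the chemical modification of ribosomal and spliceosomal RNA, and in human cells most are cut out of introns. A host gene supplies these introns. In SNHG genes the spliced exons code for no conserved protein, and many of the spliced RNAs are removed by nonsense-mediated decay when they are translated. Several, GAS5 and SNHG1 among them, are known to start with a terminal oligopyrimidine tract, a C followed by a run of C and T that couples the translation of an mRNA to growth signals. GAS5 was named for its rise in growth-arrested cells. Reads in host exons count the spliced or unspliced host RNA.

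Per RefSeq (GRCh38.p14), 24 of the 29 members hold at least 1 snoRNA in their span and 142 snoRNAs lie in them in all, of which 83 are in SNHG14, a very long transcript of the imprinted Prader-Willi region whose snoRNAs are mainly the SNORD115 and SNORD116 clusters. GAS5 holds 11, SNHG1 9, SNHG17 5 and SNHG12 4. SNHG16, the member that differed most between treatments, holds 3 closely related snoRNAs, shown here because they are what its introns can release. The capitals mark the longest stretch, of 17 bases, that all 3 share (RefSeq positions, GRCh38).
SNORD1C (chr17:76558790-76558869, plus strand): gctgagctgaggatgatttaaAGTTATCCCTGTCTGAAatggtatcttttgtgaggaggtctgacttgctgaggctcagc
SNORD1B (chr17:76561108-76561193, plus strand): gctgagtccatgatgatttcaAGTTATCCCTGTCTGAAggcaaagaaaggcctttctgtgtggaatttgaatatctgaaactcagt
SNORD1A (chr17:76561633-76561706, plus strand): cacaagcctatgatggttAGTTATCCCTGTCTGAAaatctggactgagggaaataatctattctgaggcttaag

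The start regions of SNHG5, SNHG32, SNHG19, SNHG1, SNHG16 and SNHG17 are shown for comparison (RefSeq, GRCh38.p14). They run from 40 bases before the RefSeq start to 40 bases from it. Not shown are others with results below, among them SNHG12, SNHG18 and SNHG7, which start at C, and GAS5, SNHG10, SNHG14 and SNHG29, which do not. SNHG15, SNHG6, SNHG9 and SNHG25 had no entry. Capitals mark the unbroken run of C and T from a start at C, and an entry without capitals does not start at C.
SNHG5 (chr6:85678694-85678773, minus strand): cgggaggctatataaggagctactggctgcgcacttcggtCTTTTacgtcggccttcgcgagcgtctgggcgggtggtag
SNHG32 (chr6:31834876-31834955, plus strand): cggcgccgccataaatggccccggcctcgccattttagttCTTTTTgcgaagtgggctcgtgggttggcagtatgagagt
SNHG19 (chr16:2155319-2155398, minus strand): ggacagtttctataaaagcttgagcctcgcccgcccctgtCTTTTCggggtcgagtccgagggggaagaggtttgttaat
SNHG1 (chr11:62855846-62855925, minus strand): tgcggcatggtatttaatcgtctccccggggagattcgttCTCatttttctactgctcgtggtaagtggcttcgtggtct
SNHG16 (chr17:76557724-76557803, plus strand): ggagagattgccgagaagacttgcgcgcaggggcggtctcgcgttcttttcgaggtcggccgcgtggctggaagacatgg
SNHG17 (chr20:38435289-38435368, minus strand): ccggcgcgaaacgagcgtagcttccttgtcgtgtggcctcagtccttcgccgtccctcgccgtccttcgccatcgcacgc
A start of C followed by at least 4 pyrimidines was found in 6 of the 25 members with an entry (24%), namely SNHG5, SNHG32, SNHG19, SNHG12, SNHG4 and SNHG18, against 4.07% of all 35116 promoter entries. The RefSeq start of SNHG1 had a run of 3 pyrimidines with its C, and that of GAS5, 163 bases from the GENCODE start, was an A. The letters TATAA, on either strand, lay 40 to 16 bases before the start in 5 of the 25 (20%), against 4.72% of all entries, and SNHG5, SNHG12 and SNHG19 had both features. Starts differ between annotations: the RefSeq start lay 199 bases from the GENCODE gene start for SNHG5, 308 for SNHG32, 68 for SNHG1, 37 for SNHG16 and 81 for SNHG17. Larger distances were 1259 bases for SNHG12, 1927 for SNHG20, 37251 for SNHG27 and 154975 for SNHG14. These matches describe letters only.

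NTC and the GapmeRs with which members were called, in a fit with or without the replicate number, are shown next, because their own sequences bear on whether a member could be paired directly.
NTC: aacacgtctatacgc
lnc-NKX2-3-1 GapmeR1: tgctctgtgcggattg
lnc-NKX2-3-1 GapmeR2: ctgatttttagtagtg
lnc-RTN4R-1 GapmeR2: tgctgagacatctagg
lnc-TIMM21-5 GapmeR1: aattttgcatttggta
lnc-ASTN1-1 GapmeR1: taatctgccaggagtg
The complement of none of the 9 GapmeRs was found in full in the GENCODE span of any of the 29 members, read on the transcribed strand (GRCh38). The fewest mismatches of lnc-NKX2-3-1 GapmeR1 to any member was 3 of 16 bases, in SNHG7, and in SNHG16, SNHG17, SNHG1 and SNHG15 the fewest were 4, 5, 6 and 6. The closest member of lnc-RTN4R-1 GapmeR2 included SNHG16, and that of lnc-ASTN1-1 GapmeR1 included SNHG14 and SNHG16, all at 3 mismatches. Over all GapmeRs the fewest was 2, for lnc-TIMM21-5 GapmeR1 and lnc-RTN4R-1 GapmeR1 in SNHG14, lnc-NKX2-3-1 GapmeR2 in SNHG27 and lnc-ASTN1-1 GapmeR2 in SNHG31. The spans include introns and are long in these members, with 441754 bases in SNHG14, 153395 in SNHG31, 113259 in SNHG16 and 63906 in SNHG27. A longer span gives more places for a near match, and how often near matches arise by chance was not tested.

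The members took between 0.149% and 0.185% of the counts of a sample, whose totals ran from 14627110 to 22750945. SNHG29 alone gave 24.4% of the member counts, and the 5 most counted members gave 64.8%. SNHG28 had 0 counts in every sample, SNHG27 at most 2, SNHG11 at most 4 and SNHG22 1 to 8, so these 4 members were too low to test. The other 25 passed the low-count filter in every comparison. The targeted lncRNAs were lower with their own GapmeRs in every case, but to different degrees. Levels are given in CPM (counts divided by the normalised library size in units of 1e6). For lnc-RTN4R-1 they were 3.40 to 6.44 CPM against 18.3 to 24.4 CPM in the controls. For lnc-NKX2-3-1, which was low in the controls too, they were 0 to 0.183 CPM against 0.326 to 1.26 CPM. The fall was proportionally smaller for lnc-ASTN1-1, at 9.762 to 14.59 CPM against 23.34 to 27.01 CPM. For lnc-TIMM21-5 the levels were 0.0452 to 0.5027 CPM against 1.076 to 2.192 CPM. By read counts, the lnc-ASTN1-1 knockdown was thus partial and the least complete, and some RNA of the other targets remained too. The paper selected its GapmeRs by knockdown in RT-qPCR. That is a different measure, and the counts were not compared with it. Of 9 B-cell precursor markers, 8 were well expressed, with RAG1 at 1449 to 2197 CPM and EBF1 at 223 to 334 CPM, and VPREB1 was at 0 in every sample. T-cell, erythroid and fibroblast markers were at or near 0, with CD3D, CD3G and HBB at 0 in every sample, except TRAC (7.62 to 23.9 CPM) and COL1A1 (6.10 to 17.3 CPM). Of 4 myeloid markers, LYZ, CD14 and CSF1R stayed at or below 2.60 CPM and MPO was at 79.4 to 445 CPM.

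The first question was whether any host gene differed among the 10 groups. Of the 25 members, 2 were called (8%), at an edgeR adjusted p-value under 0.05, against 16.1% of all 16268 genes tested. They were SNHG16, host of the SNORD1 family (F = 6.51, edgeR adjusted p-value 0.00183), and SNHG15, host of SNORA9 (F = 4.004, edgeR adjusted p-value 0.0249). The next smallest p-values belonged to SNHG1 (adjusted p-value 0.0624), SNHG14 (0.0664), SNHG17 (0.153), SNHG18 (0.178), SNHG4 (0.370) and SNHG19 (0.461), all by edgeR. With the replicate number as a block, the pairing being taken from the labels and methods, 12 members were called (48%) against 48.6% of all genes. These were SNHG16, SNHG14, SNHG15, SNHG1, SNHG17 and SNHG29, with edgeR adjusted p-values of 1.09e-07 to 0.00309, and SNHG32, SNHG18, SNHG6, SNHG12, SNHG19 and GAS5, with 0.0106 to 0.0469. The share of members called was thus below that of all genes without the block and near it with the block. In bulk samples, fewer cells of a type and less RNA per cell cannot be told apart. Without the samples of replicate 2 no member was called and without those of replicate 1 only SNHG16 was, and with unstranded counts SNHG15 alone was called.

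SNHG16 (GENCODE span chr17:76557727-76670985, plus strand, GRCh38, as for the other positions) gave the clearest difference among the treatments. In order of replicate number, it was at 47.0 and 44.2 CPM with medium and at 44.2, 42.1 and 42.3 CPM with NTC. It was at 52.7 and 57.9 CPM with lnc-NKX2-3-1 GapmeR1 and at 40.8, 37.1 and 35.6 CPM with lnc-NKX2-3-1 GapmeR2. The 5 controls thus lay between the samples of both GapmeRs against this lncRNA, with no overlap on either side. With lnc-RTN4R-1 GapmeR1 the levels were 42.8, 39.4 and 37.0 CPM, and with its GapmeR2 52.4, 46.5 and 47.4 CPM. With lnc-TIMM21-5 GapmeR1 they were 45.2, 39.0 and 38.0 CPM, and with its GapmeR2 41.9, 37.1 and 40.04 CPM. For lnc-ASTN1-1 they were 51.2, 42.0 and 45.2 CPM with GapmeR1 and 45.1 and 42.1 CPM with GapmeR2. The lnc-NKX2-3-1 GapmeR1 samples stood above all the others, and the next values, up to 52.4 CPM, came from lnc-RTN4R-1 GapmeR2 and lnc-ASTN1-1 GapmeR1. ST6GALNAC1 and ST6GALNAC2 overlap SNHG16 on the other strand. Its unstranded counts were 39.8% of those in the strand column used.

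SNHG15 (chr7:44983019-44986961, minus strand) followed a similar order at its upper end. It was at 46.5 and 45.9 CPM with medium, and at 43.6, 42.8 and 43.6 CPM with NTC. It was at 55.5 and 52.6 CPM with lnc-NKX2-3-1 GapmeR1 and at 48.6, 53.9 and 51.4 CPM with lnc-RTN4R-1 GapmeR2, and all 5 of these samples lay above every control. With the other GapmeRs against the same lncRNAs it was at 43.3, 49.3 and 45.1 CPM (lnc-NKX2-3-1 GapmeR2) and at 39.8, 47.0 and 44.7 CPM (lnc-RTN4R-1 GapmeR1), which overlap the controls. The lnc-TIMM21-5 samples were at 42.6, 45.4 and 48.5 CPM with GapmeR1 and at 41.8, 42.7 and 45.8 CPM with GapmeR2. The lnc-ASTN1-1 samples were at 44.1, 42.6 and 46.3 CPM with GapmeR1 and at 47.9 and 48.3 CPM with GapmeR2.

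SNHG1 (chr11:62851978-62855953, minus strand), the host of the SNORD22 and SNORD25 to SNORD31 group, was at 229.8 and 219 CPM with medium and at 248, 216 and 208 CPM with NTC. Its samples with lnc-NKX2-3-1 GapmeR1, at 278 and 268 CPM, were the highest of all 27, and those with GapmeR2 were at 232, 223 and 209.6 CPM. In the other groups it was at 225, 237 and 218 CPM (lnc-RTN4R-1 GapmeR1), 210.1, 223 and 214 CPM (lnc-RTN4R-1 GapmeR2), 229.5, 234 and 222 CPM (lnc-TIMM21-5 GapmeR1), 237, 235 and 224 CPM (lnc-TIMM21-5 GapmeR2), 226, 228 and 215 CPM (lnc-ASTN1-1 GapmeR1), and 247 and 223 CPM (lnc-ASTN1-1 GapmeR2). These groups all overlap the controls.

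SNHG17 (chr20:38419638-38435409, minus strand), host of the SNORA71 snoRNAs, was at 27.3 and 23.0 CPM with medium and 23.9, 23.6 and 26.9 CPM with NTC. It was at 38.0 and 29.8 CPM with lnc-NKX2-3-1 GapmeR1 and at 32.4, 27.1 and 30.0 CPM with GapmeR2, where the second sample lay within the range of the controls. The remaining groups were at 26.9, 28.2 and 24.7 CPM (lnc-RTN4R-1 GapmeR1), 32.4, 24.3 and 27.3 CPM (lnc-RTN4R-1 GapmeR2), 31.4, 28.1 and 27.2 CPM (lnc-TIMM21-5 GapmeR1), 29.0, 23.1 and 28.4 CPM (lnc-TIMM21-5 GapmeR2), 26.4, 22.4 and 25.8 CPM (lnc-ASTN1-1 GapmeR1), and 26.7 and 25.6 CPM (lnc-ASTN1-1 GapmeR2). Within the 9 groups that hold both numbers, SNHG17 was lower in replicate 2 than in replicate 1 in 8.

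SNHG14 (chr15:24978583-25420336, plus strand), which runs antisense to UBE3A at its far end, went the other way. It was at 134 and 133 CPM with medium, at 141, 129.6 and 145 CPM with NTC and at 124 and 114 CPM with lnc-NKX2-3-1 GapmeR1. It was at 124, 112 and 121 CPM with lnc-RTN4R-1 GapmeR2 and at 118, 119.8 and 127 CPM with lnc-ASTN1-1 GapmeR1, and all 8 samples of these 3 groups lay below every control. It was at 134, 134 and 148 CPM with lnc-NKX2-3-1 GapmeR2, at 137, 125 and 144 CPM with lnc-RTN4R-1 GapmeR1, at 135, 122 and 133 CPM with lnc-TIMM21-5 GapmeR1, at 130.2, 134 and 134 CPM with lnc-TIMM21-5 GapmeR2, and at 131 and 151 CPM with lnc-ASTN1-1 GapmeR2. SNHG14 shares its strand with SNRPN and opposes UBE3A, and 91.1% of its reads were in the strand column used, so its counts are less certain than those of members with no such neighbours.

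SNHG18 (chr5:9546170-9550725, plus strand), host of SNORD123, had only 8 to 39 counts per sample. It was at 0.642 and 0.415 CPM with lnc-NKX2-3-1 GapmeR1, below the controls at 0.861 and 0.822 CPM (medium) and 1.53, 0.880 and 1.25 CPM (NTC). With the other GapmeRs it was at 1.29, 0.836 and 1.53 CPM (lnc-NKX2-3-1 GapmeR2), 1.36, 1.15 and 1.87 CPM (lnc-RTN4R-1 GapmeR1), 1.22, 0.833 and 1.38 CPM (lnc-RTN4R-1 GapmeR2), 0.696, 0.653 and 1.499 CPM (lnc-TIMM21-5 GapmeR1), 1.69, 1.03 and 1.76 CPM (lnc-TIMM21-5 GapmeR2), 1.38, 1.11 and 1.29 CPM (lnc-ASTN1-1 GapmeR1), and 0.829 and 1.21 CPM (lnc-ASTN1-1 GapmeR2). SNHG4 ranged from 12.5 to 20.8 CPM over the 27 samples and SNHG19, host of SNORD60, from 13.5 to 25.1 CPM.

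**Figure D1:**
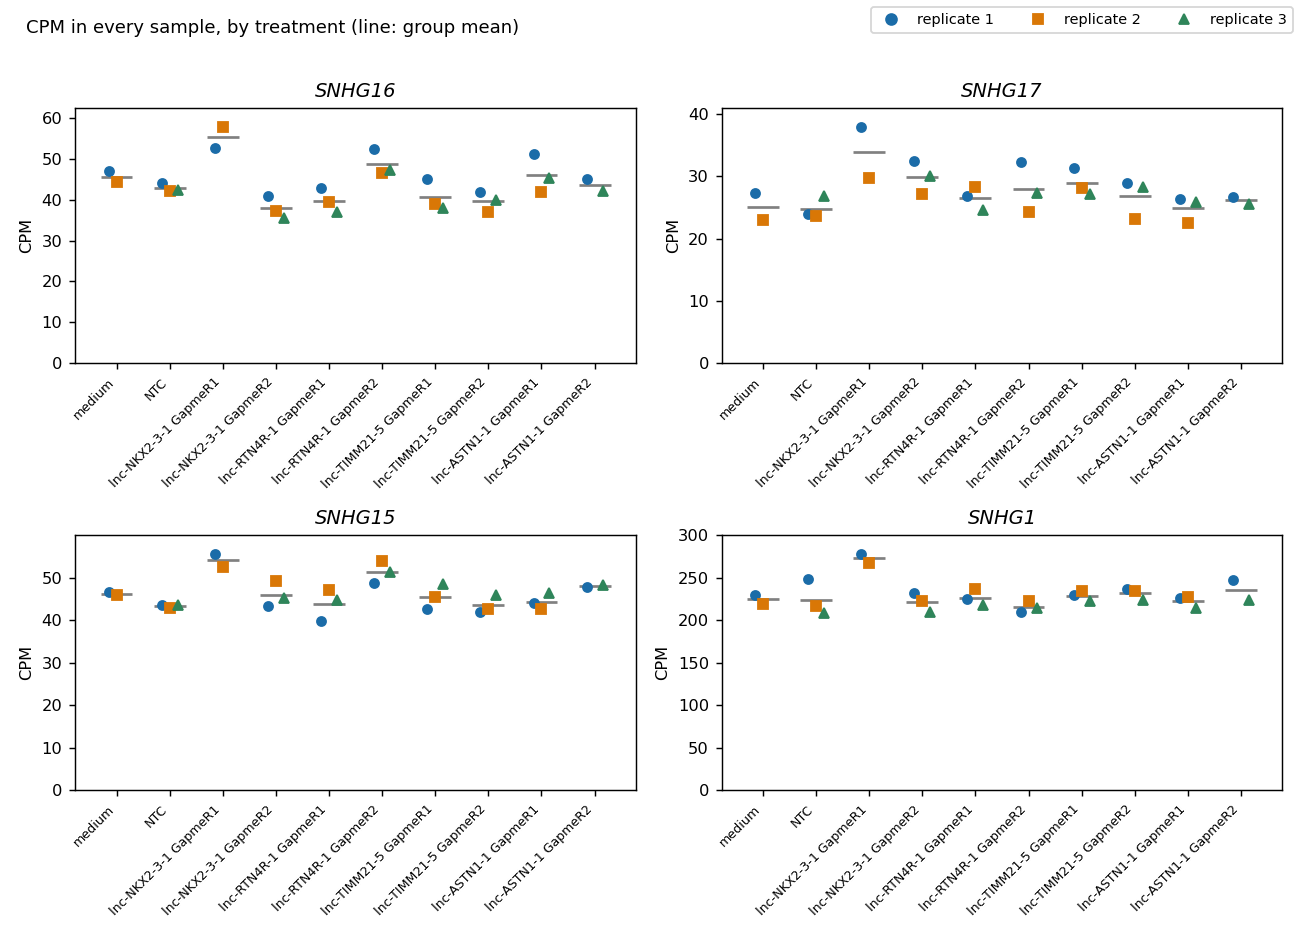
CPM (y axis) of SNHG16, SNHG17, SNHG15 and SNHG1 in each of the 27 samples, by treatment group (x axis), with a symbol per replicate number and a grey line at the group mean. The lnc-NKX2-3-1 GapmeR1 samples lie at the top for SNHG16 (52.7 and 57.9 CPM) and SNHG1 (278 and 268 CPM), while SNHG15 also reaches 53.9 CPM with lnc-RTN4R-1 GapmeR2.

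The study joined the samples of both oligonucleotides that target a lncRNA and set them against the controls, to ask what changes upon knockdown of that lncRNA. No member was called in any of these 4 comparisons by edgeR, with or without the replicate block. Of all genes, 1.96% (lnc-RTN4R-1), 1.32% (lnc-TIMM21-5), 0.881% (lnc-ASTN1-1) and 0.0135% (lnc-NKX2-3-1) were called with the block. Without the block 0.476% of all genes were called upon pooled knockdown of lnc-RTN4R-1, 0.0136% upon that of lnc-ASTN1-1, 0.00665% upon that of lnc-TIMM21-5 and 0% upon that of lnc-NKX2-3-1. At an unadjusted p under 0.05, 2 members each were found upon lnc-NKX2-3-1 and lnc-TIMM21-5 knockdown and 0 in the other comparisons, and DESeq2 called none in any of the 4. The median log2 fold change of the members ran from -0.01 (lnc-RTN4R-1) to 0.03 (lnc-TIMM21-5), and that of all genes was at most 0.00502. Between NTC and medium no member was called either by edgeR, beside 0% of all genes without the block and 1.53% with it, or by DESeq2. At an unadjusted p under 0.05 there were 0 members without the block and 4 with it, where 19 of the 25 members had negative values. The fit with the block left 1 residual degree of freedom.

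Single GapmeRs against the 5 controls gave calls by edgeR without the replicate block for lnc-NKX2-3-1 GapmeR1 only. There, 4 members were higher (16%), against 7.41% of all genes called higher and 17.6% called in either direction, and 0 were lower, against 10.2% of all genes. On the log2 scale SNHG17 was higher by 0.45 (standard error 0.109, adjusted p-value 0.0122), SNHG16 by 0.34 (0.0791, 0.0103), SNHG1 by 0.29 (0.0784, 0.0219) and SNHG15 by 0.29 (0.0745, 0.0173), all by edgeR. For SNHG16, SNHG1, SNHG15 and SNHG17, all samples lay above every control. The median over the 25 members was 0.12, against 0.0037 over all genes, and the median size of the change was 0.19 in both. Of the 4 myeloid markers, MPO (162 to 194 CPM against 84.8 to 132 CPM in the controls) and CSF1R (1.45 to 1.79 against 0.340 to 1.04 CPM) lay above every control in these samples, and LYZ and CD14 overlapped the controls. The 4 summed to 164 to 197 CPM against 86.2 to 133 CPM, and COL1A1 was lower, at 6.10 to 6.53 CPM against 7.75 to 13.4 CPM. Their part in the result was not tested.

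These calls rested on few samples. Without lnc-NKX2-3-1 GapmeR1 replicate 1 only 1 member was called, SNHG16, with log2 fold changes of 0.27 for SNHG17 (adjusted p-value 0.268), 0.27 for SNHG1 (0.178) and 0.25 for SNHG15 (0.181), by edgeR. Without its replicate 2 only SNHG17 was called, and SNHG16 was at 0.27 (edgeR adjusted p-value 0.192). Without NTC replicate 2, SNHG1 was at 0.27 (edgeR adjusted p-value 0.0575), and with unstranded counts SNHG16 was at 0.29 (edgeR adjusted p-value 0.0597). The direction stayed the same in each of these fits. The unstranded fit of SNHG16 used fewer reads, 39.8% of those in the strand column.

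With the replicate block, the pairing being taken from the labels and methods, 12 members were called with lnc-NKX2-3-1 GapmeR1 (48%), against 36.4% of all genes. Of these, 10 were higher (40%, against 18.4% of all genes called higher) and 2, SNHG14 and SNHG18, were lower (8%, against 18.0%). The 6 with the smallest p were SNHG17 at a log2 fold change of 0.48, SNHG32 at 0.31, SNHG1 at 0.27, SNHG16 at 0.32, SNHG15 at 0.28 and SNHG6 at 0.26, with edgeR adjusted p-values of 3.62e-06 to 0.000512. The others higher were SNHG12, GAS5, SNHG29 and SNHG9, at 0.17 to 0.42. SNHG14 was at -0.17 and SNHG18 at -0.93.

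**Figure D2:**
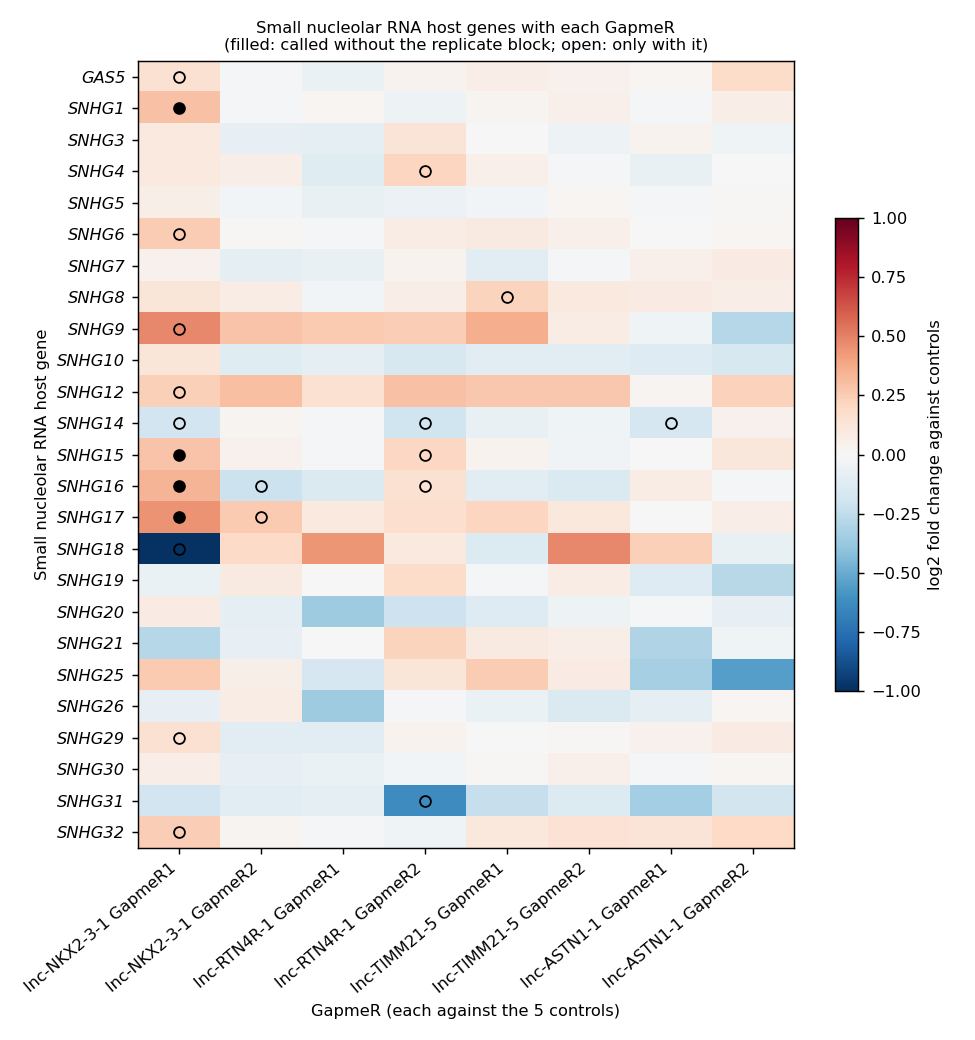
Log2 fold change (colour, from -1 to 1) of the 25 tested members (rows) with each of the 8 GapmeRs against the 5 controls (columns), where filled circles mark calls without the replicate block and open circles calls with it only. The filled circles are all in the lnc-NKX2-3-1 GapmeR1 column, with SNHG17 at 0.45 and SNHG16 at 0.34, and SNHG18 reaches -0.99 there with an open circle.

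The remaining 7 GapmeRs gave no called member by edgeR without the block, beside 0% of all genes with lnc-NKX2-3-1 GapmeR2, 1.59% and 6.62% with lnc-RTN4R-1 GapmeR1 and GapmeR2, 0.0790% and 0.0593% with lnc-TIMM21-5 GapmeR1 and GapmeR2, and 0.718% and 0.0130% with lnc-ASTN1-1 GapmeR1 and GapmeR2. At an unadjusted p under 0.05 there were 3, 2, 4, 3, 0, 1 and 0 members in the same order, and DESeq2 called SNHG14 with lnc-RTN4R-1 GapmeR2 and no member with the others. With the replicate block (pairing from the labels and methods), lnc-RTN4R-1 GapmeR2 gave 5 members (20%), against 22.4% of all genes. SNHG15 (log2 fold change 0.21), SNHG4 (0.225) and SNHG16 (0.16) were higher and SNHG14 (-0.21) and SNHG31 (-0.60) lower, with edgeR adjusted p-values of 0.0019 to 0.0412. SNHG4 shares its strand with the protein-coding gene MATR3, so its counts are less certain, as are those of SNHG14. SNHG31 was at 1.67 to 2.55 CPM there and at 3.18 to 3.62 CPM in the controls, with 29 to 80 counts per sample over the whole series. MPO was at 290.8 to 445 CPM with lnc-RTN4R-1 GapmeR2, CSF1R at 2.03 to 2.60 CPM and LYZ at 0.231 to 0.348 CPM, all above every control, CD14 overlapped the controls, and the 4 myeloid markers summed to 294 to 449 CPM. Their part in these results was not tested. lnc-NKX2-3-1 GapmeR2 gave 2 members with the block, against 2.72% of all genes. SNHG17 was higher (0.25, edgeR adjusted p-value 0.0187), as with GapmeR1, and SNHG16 was lower (-0.20, edgeR adjusted p-value 0.0308), opposite to GapmeR1. lnc-TIMM21-5 GapmeR1 gave SNHG8, host of SNORA24 (0.22, edgeR adjusted p-value 0.0267), against 2.79% of all genes called with the block, at 42.5 to 46.9 CPM beside 36.0 to 43.5 CPM in the controls. lnc-ASTN1-1 GapmeR1 gave SNHG14 (-0.18, edgeR adjusted p-value 0.00523), against 4.86% of all genes. No member was called with the block for lnc-RTN4R-1 GapmeR1, lnc-TIMM21-5 GapmeR2 or lnc-ASTN1-1 GapmeR2, against 9.39%, 0.330% and 0.215% of all genes. All 8 comparisons of single GapmeRs share the same 5 controls.

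The next question was whether the GapmeRs against the same lncRNA differed from each other. For lnc-NKX2-3-1, 2 members were higher with GapmeR1 (8%), against 3.97% of all genes called higher, and 0 were lower, against 8.98% (13.0% in either direction). On the log2 scale SNHG16 was higher by 0.55 (standard error 0.100, adjusted p-value 0.00593) and SNHG1 by 0.30 (0.0833, 0.0378), both by edgeR. This fit did not use the replicate number, and GapmeR1 had no replicate 3. Replicate 3 was not above the mean of the others in 7 of 8 groups for SNHG16 and in 8 of 8 for SNHG1. Without GapmeR1 replicate 1 only SNHG16 was called, and without GapmeR1 replicate 2 no member was, with SNHG16 at 0.48 (edgeR adjusted p-value 0.0998). SNHG1 also fell short without GapmeR2 replicate 1 (0.34, edgeR adjusted p-value 0.0771) and without GapmeR2 replicate 2 (0.31, edgeR adjusted p-value 0.0722). With the replicate block (pairing from the labels and methods), which left 1 residual degree of freedom, 13 members were called, against 41.8% of all genes. SNHG16, SNHG1, SNHG29, SNHG32, SNHG6 and GAS5 led, all higher with GapmeR1 by 0.18 to 0.50 on the log2 scale.

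For lnc-RTN4R-1 no member differed between the GapmeRs without the block, against 5.92% of all genes, while 6 had an unadjusted p under 0.05 and DESeq2 called none. With the block 8 were called (32%, pairing from the labels and methods), against 30.9% of all genes. The 6 with the smallest p were SNHG16 (-0.29), SNHG14 (0.19), SNHG15 (-0.23), SNHG4 (-0.33), SNHG3 (-0.23) and SNHG29 (-0.14), where negative values are lower with GapmeR1. SNHG4 and SNHG3 share their strand with the protein-coding genes MATR3 and RCC1, so their counts are less certain. No member differed between the lnc-TIMM21-5 GapmeRs to the point of a call (0.0784% of all genes called by edgeR and 0.503% with the block, 0 members at an unadjusted p under 0.05, 0 by DESeq2). Between the lnc-ASTN1-1 GapmeRs 0.146% of all genes and no member were called (1 at an unadjusted p under 0.05, 0 by DESeq2), and with the block, at 1 residual degree of freedom, SNHG14 was (-0.21, edgeR adjusted p-value 0.00445, against 4.29% of all genes).

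The replicate numbers mark separate days per the methods. With the treatment groups held fixed, 10 of the 25 members differed between replicate 2 and replicate 1 (40%), against 23.4% of all genes. All 10 were lower in replicate 2, beside 10.8% of all genes called lower, and 0 were higher, beside 12.7%. The median log2 fold change of the members was -0.12, against 0.0017 over all genes. The members together took 0.155% to 0.185% of the counts in the 10 samples of replicate 1, 0.149% to 0.166% in the 9 of replicate 2 and 0.164% to 0.180% in the 8 of replicate 3. With only 3 replicate numbers, day cannot be told apart from anything else that the samples of a number share.

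SNHG6, host of SNORD87, differed most clearly between replicates 1 and 2. Its lowest, median and highest levels were 67.1, 71.9 and 84.9 CPM in replicate 1 and 53.6, 62.0 and 71.2 CPM in replicate 2. It was lower in replicate 2 in 9 of the 9 groups that hold both numbers, at -0.27 on the log2 scale (edgeR adjusted p-value 3.03e-07, standard error 0.0356). SNHG5 (chr6:85650491-85678932, minus strand), host of SNORD50A and SNORD50B, went from 111, 128 and 133 CPM to 101, 107 and 113 CPM, lower in 8 of 9 groups (-0.22, standard error 0.036, edgeR adjusted p-value 3.61e-05). SNHG29, host of SNORD49A, SNORD49B and SNORD65 and the most counted member, went from 379, 423 and 474 CPM to 347, 374 and 420.2 CPM (-0.15, lower in 8 of 9). SNHG32, host of SNORD48 and SNORD52, was lower in 9 of 9 (-0.23), SNHG17 in 8 of 9 (-0.22) and SNHG25, host of SNORD104, in 8 of 9 (-0.49). SNHG25 had only 19 to 68 counts per sample. GAS5 was lower in 7 of 9 (-0.12, standard error 0.033, edgeR adjusted p-value 0.00644). SNHG16, SNHG8 and SNHG18 were also called.

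Replicate 3 against the mean of replicates 1 and 2 gave 17 called members (68%), against 54.1% of all genes. Here the directions were mixed, with 9 higher (36%, against 28.1% of all genes) and 8 lower (32%, against 26.0%), and the median log2 fold change of the members was 0.01. SNHG32 (chr6:31834608-31839766, plus strand) was higher in replicate 3 in 8 of 8 groups, at a lowest, median and highest level of 134, 151 and 165 CPM against 108, 136 and 168 CPM in replicate 1 and 104, 114 and 132 CPM in replicate 2 (0.31 on the log2 scale, edgeR adjusted p-value 2.58e-07, standard error 0.0382). SNHG12 (chr1:28578538-28583132, minus strand), host of 4 snoRNAs, was at 19.2, 21.3 and 25.3 CPM against 14.6, 17.1 and 19.4 CPM and 15.2, 18.65 and 21.2 CPM, again higher in 8 of 8 groups (0.31, standard error 0.048, edgeR adjusted p-value 5.34e-07). GAS5 (chr1:173858559-173868882, minus strand) was at 169, 194 and 202 CPM against 153, 173.5 and 201 CPM and 152, 159.8 and 176 CPM, higher in 8 of 8 groups (0.19, edgeR adjusted p-value 5.12e-06, standard error 0.0313). The ranges of SNHG32 and GAS5 in replicate 3 overlap those of replicate 1. The difference named here is from the mean of the other replicates, within treatment groups. SNHG7, host of SNORA17A and SNORA17B, was also higher in 8 of 8 (0.20), but only 56.1% of its reads were in the strand column used and DIPK1B overlaps it on the other strand.

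The members lower in replicate 3 were led by SNHG10 (chr14:95521943-95534889, minus strand), at 12.8, 13.1 and 14.4 CPM against 14.9, 16.2 and 19.7 CPM in replicate 1 and 14.8, 16.1 and 19.0 CPM in replicate 2. Every replicate 3 sample of SNHG10 lay below every other sample (-0.26, standard error 0.047, edgeR adjusted p-value 1.2e-05). SNHG19 was lower in 8 of 8 groups (-0.24, edgeR adjusted p-value 0.000552), and so was SNHG1, by a smaller amount, at 208, 216 and 224 CPM against 210.1, 231 and 278 CPM and 216, 227.5 and 268 CPM (-0.090, standard error 0.024, edgeR adjusted p-value 0.00149). SNHG5, SNHG30, SNHG25, SNHG31 and SNHG9 were also lower and SNHG14, SNHG18, SNHG29, SNHG20 and SNHG6 also higher than the mean of replicates 1 and 2. A member low in replicate 2 alone can be called higher here, and one high in replicate 1 alone lower. SNHG6 in replicate 3 was below replicate 1 in NTC (64.7 against 74.5 CPM) and above it with lnc-ASTN1-1 GapmeR1 (69.6 against 69.0 CPM). SNHG20 shares its strand with SEC14L1 and SNHG5 with another protein-coding gene, so their counts are less certain. Of the 6 members with C and a pyrimidine run at the RefSeq start, SNHG12, SNHG18 and SNHG32 were called higher and SNHG5 and SNHG19 lower in replicate 3, and SNHG5, SNHG18 and SNHG32 were called lower in replicate 2. SNHG15, SNHG21, SNHG26, SNHG3 and SNHG4 were called in neither contrast, and SNHG21 in no comparison of any kind.

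**Figure D3:**
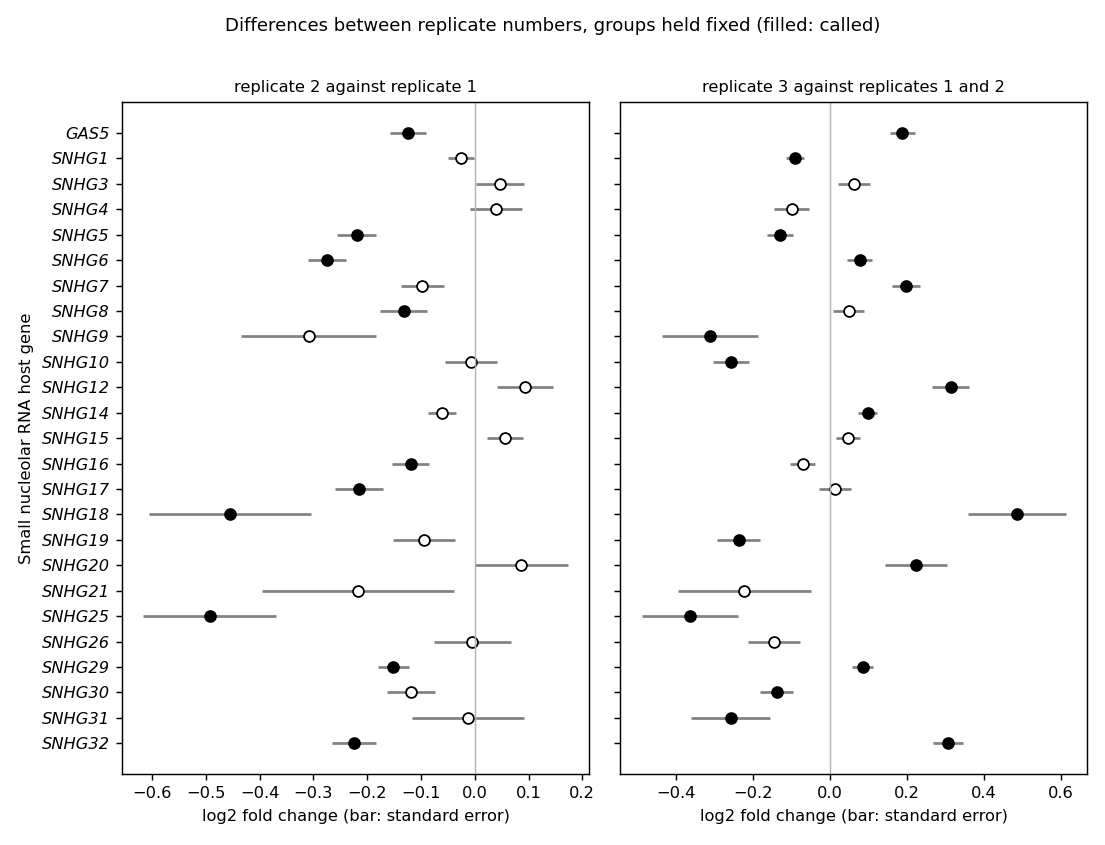
Log2 fold change (x axis) of the 25 tested members (y axis) between replicate 2 and replicate 1 (left) and between replicate 3 and the mean of replicates 1 and 2 (right), with standard errors as bars and filled points for called members. The 10 filled points on the left all lie below 0, while the 17 on the right divide into 9 above and 8 below.

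**Figure D4:**
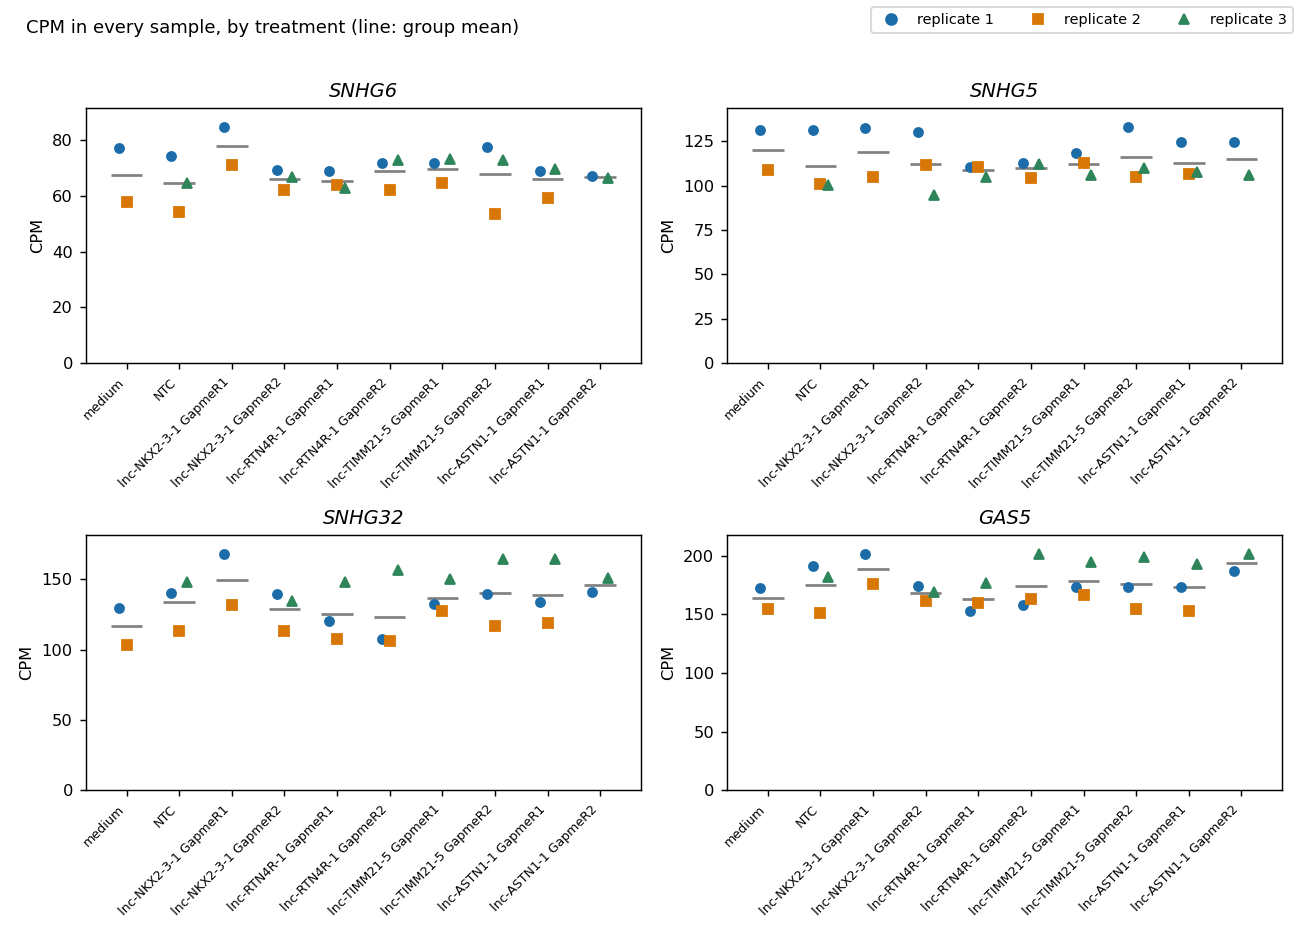
CPM (y axis) of SNHG6, SNHG5, SNHG32 and GAS5 in each of the 27 samples, by treatment group (x axis), with a symbol per replicate number and a grey line at the group mean. Replicate 2 lies below replicate 1 in all 9 groups with both for SNHG6 and SNHG32, and replicate 3 lies above the mean of the other replicates in all 8 groups that have it for SNHG32 and GAS5.

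Other genes of the same pathway were examined from lists. Of 18 genes whose proteins build and assemble snoRNPs, the particles in which snoRNAs work, 17 had lower RNA in replicate 3 and 0 higher. Beside these were 26.0% and 28.1% of all genes. The list median was -0.21 log2, against 0.0098 over all genes. Of the 25 host genes themselves, 9 were called higher and 8 lower there, against the mean of replicates 1 and 2. Between replicates 2 and 1, 3 of the 18 were higher and 1 lower, beside 12.7% and 10.8% of all genes. With lnc-NKX2-3-1 GapmeR1, 1 was higher and 1 lower, beside 7.41% and 10.2% of all genes, and with the block 5 and 3, beside 18.4% and 18.0%. Over the 10 groups 1 was called, ZNHIT6 (edgeR adjusted p-value 0.0019), and 12 with the block, beside 16.1% and 48.6% of all genes. NUFIP1 (edgeR adjusted p-value 0.0699) and RUVBL1 (edgeR adjusted p-value 0.102) came next, and RUVBL1 was the snoRNP factor that was lower with lnc-NKX2-3-1 GapmeR1, at -0.74 (edgeR adjusted p-value 0.0014).

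Of 10 genes for nonsense-mediated decay factors, 2 were called over the 10 groups and 7 with the block. With lnc-NKX2-3-1 GapmeR1, 2 were higher and 1 lower, and with the block 6 and 2. In replicate 3, 2 of the 10 were higher and 2 lower, and in replicate 2 against replicate 1, 3 were higher and 1 lower. Of 20 other snoRNA host genes that code for no ribosomal protein, 2 were called over the 10 groups, EIF4A2 and GNL3, and 16 with the block. With lnc-NKX2-3-1 GapmeR1, 4 of the 20 were higher and 1, GNL3, lower, and with the block 7 and 1. The shares of all genes given for the snoRNP list hold for these lists too. GNL3, a nucleolar GTPase gene whose introns also hold snoRNAs, was at -0.997 there and EIF4A2 at 0.32. In replicate 3, 6 of the 20 were higher and 10 lower, and in replicate 2 against replicate 1, 5 were higher and 6 lower, beside 0 and 10 of the 25 SNHG members and GAS5.

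The snoRNAs themselves could hardly be measured. Of 135 snoRNA genes of GENCODE within the members, 90 had no count in any sample, 49 of these over an exon of the host, and 5 could be tested over the 10 groups, with no call. SNHG14 alone holds 84 of the 135, and some symbols, such as SNORA16A, have repeated entries. GAS5 holds 0 of them, so the snoRNAs that RefSeq places in GAS5 were not examined. SNORD1C and SNORD1A, shown above, had 0 counts in every sample and SNORD1B at most 5. SNORD104 in SNHG25 had 38 to 95 counts per sample (edgeR adjusted p-value 0.0888 over the 10 groups), and SNORA71B in SNHG17 had 7 to 41 (0.800). SNORA71B was lower in replicate 3 (-0.46, edgeR adjusted p-value 0.0137), where SNHG17 was at 0.01. SNORD104 was higher with lnc-RTN4R-1 GapmeR2 (0.63, edgeR adjusted p-value 0.0395), where SNHG25 was not called. With lnc-NKX2-3-1 GapmeR1, SNORA71B was at 0.65 (edgeR adjusted p-value 0.0816) beside 0.45 for SNHG17. In GENCODE, SNORD1C and SNORD1A overlap an exon of SNHG16, and a read over both cannot be given to either gene alone. The annotation used for counting is not known, and SNORA71C, which also overlaps an exon of its host, had 161 counts in all. Why SNORD1C and SNORD1A had 0 counts was not tested. The labels and methods also differ on whether RNA with no poly-A tail was kept, so these counts say little about snoRNA levels.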

How the data were processed

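RNA sequencing of 27 samples was analysed. The authors aligned reads to hg38 with STAR and deposited raw counts per gene, without normalisation, as unstranded counts and counts for each strand. Column 4, with 95.2% to 95.4% of the strand counts, was used. The annotation release was not given in the sources used here. The labels describe ribodepleted stranded RNA, the methods poly-A selection. Symbols and positions came from GENCODE v44 (56434 of 60619 identifiers matched).

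Testing was by robust quasi-likelihood F tests of edgeR (4.0.16) on the counts, in R (4.3.3), after TMM normalisation and filterByExpr (minimum count 10, minimum total count 15), each comparison on its own samples. The study used DESeq2. The contrasts of replicate numbers used all samples, with a term for each group. P-values were adjusted over all genes tested by the Benjamini-Hochberg method and called under 0.05. Standard errors came from the F statistics. CPM used TMM library sizes. Fits were tested on simulated data. Where a lone sample stood for a group after leaving others out, it was assumed to vary like the rest.

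The members and lists were chosen with earlier results of these data known. Values are given for members with the smallest p over the 10 groups and in the replicate 3 contrast, and up to 6 called members per comparison are named with values. Other names, such as SNHG31 and those of the remaining called members, follow from accounting for all. Deviations from group means correlated at 0.263 over 109 pairs of samples with the same replicate number, so the numbers, which mark days per the methods, pair the samples. The value of -0.130 over 218 pairs with different numbers adds little, because deviations within a group cancel. Alternatives were DESeq2 (1.42.0), a floor of 10 counts in each sample, NTC as the only controls, RLE normalisation, a single fit of all samples, omitting the filter, the replicate block, unstranded counts and leaving out replicates. Leaving out single samples for lnc-NKX2-3-1 was added after seeing the data. Single genes of the decay factor list are not reported here.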

Additional observations from a re-analysis of the deposited data

Results flagged for a closer look

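Among 125 sets of 5 or 6 samples (25 members in the controls and in the pooled samples of each lncRNA), 7 (5.60%) held a sample whose gap to the nearest other, as a share of the whole range of log2 CPM, was beyond Dixon's 95% limit. Chance flags about 1 in 20 such sets. All 7 were lowest samples. SNHG20 was at 3.96 CPM in NTC replicate 1 and at 5.41 to 5.81 CPM in the other controls (0.812 of the range). SNHG6 and SNHG17 were lowest in lnc-ASTN1-1 GapmeR1 replicate 2, at 59.4 CPM against 66.6 to 69.6 CPM (0.718) and at 22.4 CPM against 25.6 to 26.7 CPM (0.760). SNHG8 and SNHG4 were lowest in lnc-TIMM21-5 GapmeR2 replicate 2, at 34.5 CPM against 42.5 to 46.9 CPM (0.682) and at 15.3 CPM against 16.5 to 17.2 CPM (0.637). SNHG14 was at 121.8 CPM in lnc-TIMM21-5 GapmeR1 replicate 2 against 130.2 to 135 CPM (0.645), and SNHG9 at 4.42 CPM in lnc-NKX2-3-1 GapmeR2 replicate 3 against 6.53 to 7.56 CPM (0.726). The 7 values came from 5 samples, 3 of them of replicate 2.

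The GapmeRs against lnc-NKX2-3-1 differed directly in SNHG16 (log2 fold change 0.548 of GapmeR1 over GapmeR2) and SNHG1 (0.305). The edgeR test of that difference did not use the replicate number, and GapmeR1 had no replicate 3. Both members were also called with the replicate block.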

How the results depend on the processing

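The 33 named fold changes had 505 alternative values. Of these, 447 kept their direction and their call, 58 kept their direction and lost the call, and none reversed. At least 1 alternative removed the call for 13 of the 33. Among them were all the treatment differences, namely SNHG16, SNHG17, SNHG15 and SNHG1 with lnc-NKX2-3-1 GapmeR1. The others of this kind were SNHG16 and SNHG1 between the lnc-NKX2-3-1 GapmeRs. The rest of the 33 were contrasts of replicate numbers. Of the 233 alternative counts of called members, 202 stayed within 1.5 times. With the replicate block (pairing from the labels and methods), the counts moved from 4 to 12 for lnc-NKX2-3-1 GapmeR1, from 0 to 2 for its GapmeR2, from 0 to 5 for lnc-RTN4R-1 GapmeR2, from 0 to 1 each for lnc-TIMM21-5 GapmeR1 and lnc-ASTN1-1 GapmeR1, from 2 to 13, 0 to 8 and 0 to 1 between the GapmeR pairs against lnc-NKX2-3-1, against lnc-RTN4R-1 and against lnc-ASTN1-1, and from 2 to 12 over the 10 groups. The block changed no other count of called members. Calls over all genes moved as well, for example from 2622 to 7908 over the 10 groups. A single fit of all samples gave 1 member for pooled lnc-NKX2-3-1, 2 for lnc-RTN4R-1 GapmeR2, and 5 and 3 between the GapmeR pairs against lnc-NKX2-3-1 and against lnc-RTN4R-1. Without the low-count filter there were 7 for lnc-NKX2-3-1 GapmeR1, 1 between the lnc-RTN4R-1 GapmeRs and 4 over the 10 groups. DESeq2 gave 4 over the 10 groups and 1 for lnc-RTN4R-1 GapmeR2, as did at least 10 counts in every sample for that GapmeR, and unstranded counts gave 1 over the 10 groups. The cause was not tested. Leaving out replicates or single samples gave 0 to 5 for lnc-NKX2-3-1 GapmeR1, 0 to 2 between its GapmeRs and 0 to 3 over the 10 groups, with fewer samples in each fit. Leaving out each treatment group gave 13 to 17 members in replicate 3 and 8 to 13 in replicate 2. In replicate 3, SNHG6, SNHG9, SNHG31, SNHG20 and SNHG25 lost their call in at least 1 fit, and in replicate 2 SNHG8 and SNHG18 did. SNHG18, SNHG21, SNHG25 and SNHG31 had under 100 counts in every sample, which limits their precision.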
